A study of Homo sapiens with 6 samples.

Results

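The genes of the mitochondrial ribosome and of mitochondrial translation were taken as the protein-coding genes with an MRPL or MRPS symbol, DAP3, and the factors MTIF2, MTIF3, TUFM, TSFM, GFM1, GFM2, MTRF1, MTRF1L and MRRF. In all, 87 of the 13885 genes of the authors' deposited table met this rule: 49 large subunit proteins, 29 small subunit proteins and 9 translation factors. A further gene of the annotation, MRPS24, was not analysed here. The samples were 6 RNA-seq libraries of BE(2)-C, a human neuroblastoma cell line with neuronal features that differentiates further under retinoic acid. In 3 of them (siPcif1) the cells were transfected with an siRNA targeting PCIF1, the enzyme that methylates a cap-adjacent adenosine to m6Am. In the other 3 (siScram) a scrambled control was used. Transfection lasted 24 h in both groups, after which all 6 cultures had 4 days of all-trans retinoic acid (ATRA) at 10 µM, renewed every 24 h. Every value is thus that of ATRA-treated cells, and none shows what ATRA itself did. The labels do not say whether the samples of a group were grown separately, and a p-value here covers the spread among these samples alone, which may be technical.

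Mitochondria carry their own ribosome, which translates a small set of membrane subunits of the respiratory chain and ATP synthase from mRNAs of the mitochondrial genome. Its ribosomal RNAs are made inside the organelle, while every protein of its large (MRPL) and small (MRPS) subunit and every translation factor is encoded in the nucleus, made by cytosolic ribosomes and imported. Some of these proteins descend from the ribosome of the bacterial ancestor, and others were added later and have no bacterial counterpart.

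The only values at hand were those of the authors' deposited DESeq2 comparison: per gene the mean normalised count over all 6 libraries, the log2 fold change with its standard error (SE), and a p-value adjusted over the table. Values of single libraries were not analysed here, the SE is the measure of spread, and the depth of each library is unknown. A gene is called where its DESeq2 adjusted p is under 0.05. In the authors' deposited table PCIF1 itself had a log2 fold change of -0.82 (SE 0.19, DESeq2 adjusted p = 0.000167), and its negative sign was used to read all fold changes as siPcif1 over siScram. The header does not state the direction and the name of the table puts siScram before siPcif1, so a plain reading would turn every sign. For the same reason this value cannot show whether the knockdown worked. All 12 listed markers of adrenergic neuroblastoma were in the table, at mean normalised counts of 43.3 to 4718, with 5 called higher and 2 lower. Of 10 listed markers of other cell types 3 were in it, EPCAM at 13.9, COL1A1 at 21.5 and LUM at 80.1, and none of the 3 was called. In bulk RNA, fewer cells of a kind and less RNA per cell cannot be told apart.

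Of the 87 members, 25 were called, 9 higher and 16 lower after siPcif1, which is 28.7% of them. Of all 13885 genes 34.0% were called, 16.3% higher and 17.7% lower, so the members' share was below that of the table, by a difference that was not tested. Their median log2 fold change was -0.07, against 0.0059 for all genes. They ran from -0.97 for MRPL49 to 0.88 for GFM1, and 0 of the 87 reached an absolute log2 fold change of 1, against 731 genes of the table. The members also lay closer together than genes at large, with an interquartile range of 0.488 on the log2 scale against 0.637. The SE of the members was between 0.123 and 0.293 with a median of 0.162, and their median absolute log2 fold change was 0.241, against 0.318 for all genes. Every member was kept whatever its level, and 78 had a mean normalised count of at least 100. The 62 members not called lay between -0.40 and 0.46. At an unadjusted p under 0.05 there were 36 members and 5998 genes of the table.

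**Figure D1:**
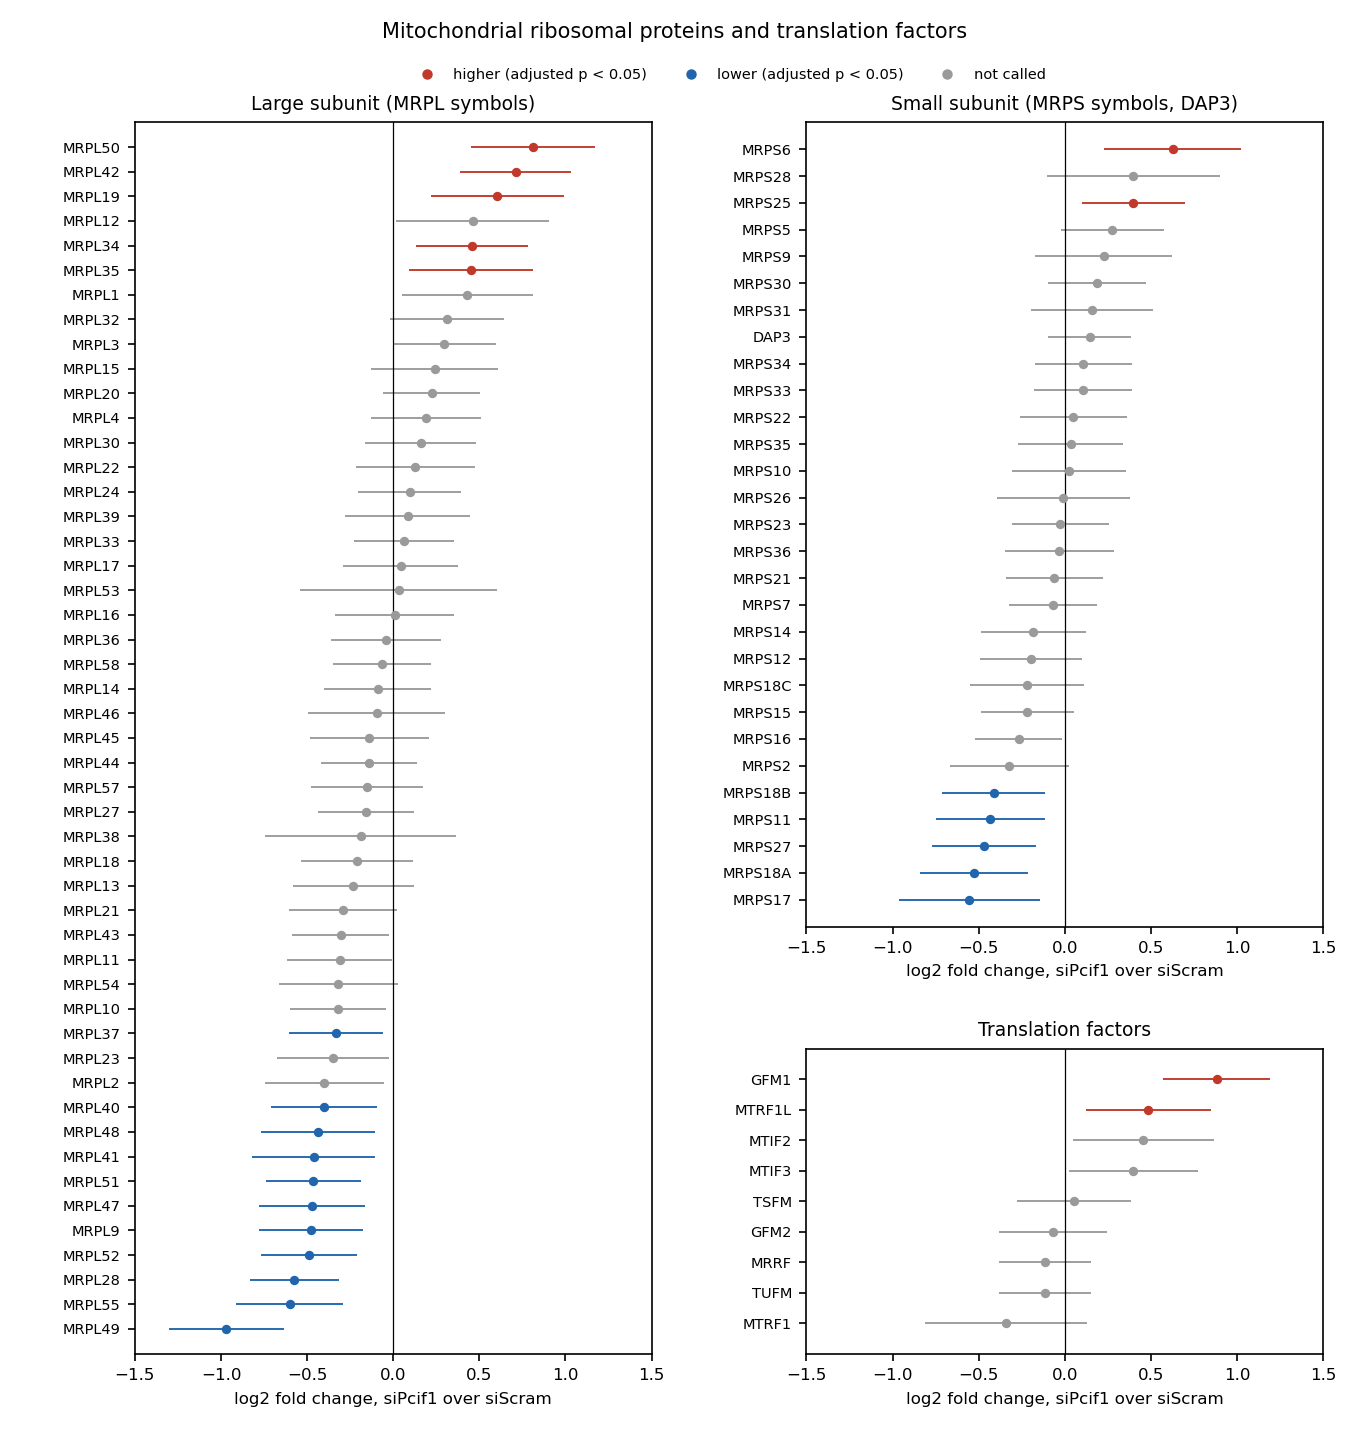
Log2 fold change (siPcif1 over siScram, x axis) of each of the 87 genes in the authors' deposited table, with bars for the 95% interval from the deposited SE, in panels for the large subunit, the small subunit and the translation factors. Of the large subunit 5 genes are called higher and 11 lower, of the small subunit 2 and 5, of the factors 2 and 0, and most intervals span or lie close to 0.

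The promoters of 4 called members are shown, picked among those outside annotated exons to include members that moved in opposite directions. Each is the 100 bases before the RefSeq start on GRCh38.p14, read 5′ to 3′ on the gene's own strand. Capitals mark CCGGAAG or its reverse complement CTTCCGG, a core word bound by ETS factors, among them GABPA, a known activator of nuclear genes for mitochondria.
MTRF1L (called higher; chr6:153002710-153002809, minus strand): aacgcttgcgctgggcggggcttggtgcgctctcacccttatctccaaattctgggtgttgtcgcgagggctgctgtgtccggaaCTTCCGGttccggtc
MRPS18A (called lower; chr6:43687792-43687891, minus strand): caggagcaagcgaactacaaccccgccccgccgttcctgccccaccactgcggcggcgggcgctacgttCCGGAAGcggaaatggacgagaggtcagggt
MRPL50 (called higher; chr9:101398619-101398718, minus strand): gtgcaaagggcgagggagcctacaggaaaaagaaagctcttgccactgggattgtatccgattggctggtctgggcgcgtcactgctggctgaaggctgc
MRPL28 (called lower; chr16:370539-370638, minus strand): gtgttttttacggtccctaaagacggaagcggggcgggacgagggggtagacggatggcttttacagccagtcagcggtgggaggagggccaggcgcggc
The word is thus present in 1 promoter of a gene that rose and 1 of a gene that fell, and these 100 bases lack it in another of each. This even split comes from the choice of promoters and is no result. MRPL34 and MRPL19, both called higher, also have these bases outside annotated exons, lack the word there and are not shown.

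Of the 49 large subunit genes 5 rose, 11 fell and 33 were not called, a called share of 32.7%, and the median log2 fold change was -0.14. In the small subunit 2 of 29 genes rose, 5 fell and 22 were not called, a called share of 24.1%, with a median of -0.02. Both shares were below the 34.0% of all genes, and the difference between the subunits was not tested. The large subunit median thus lay 0.11 below that of the small subunit on the log2 scale. The SE of a typical single member was larger than this distance, but it does not measure the spread of a median over genes. Per kilobase of the main transcript, the median of the mean normalised counts was 338 for large subunit genes, 212 for small subunit genes and 55.6 for all genes of the table, so both subunits were expressed above the level of genes at large. The 78 cytosolic ribosomal protein genes stood far higher, at a median of 6670 per kilobase.

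In the authors' deposited table MRPL49, a large subunit protein with no bacterial counterpart, had the lowest value of all members, a log2 fold change of -0.97 (SE 0.17, DESeq2 adjusted p = 2.75e-07). That corresponds to 51.1% of the siScram level, with a 95% interval of 40.5% to 64.3% from the deposited SE. The gene lies at chr11:65122183-65127371 on the plus strand (GRCh38), and 12.2% of its exonic bases overlap exons of FAU or SYVN1 on the other strand. The next lowest was MRPL55, the counterpart of bacterial L31, at -0.60 (SE 0.16, DESeq2 adjusted p = 0.000987). MRPL28, the counterpart of bacterial L28, fell by 0.57 (SE 0.13, DESeq2 adjusted p = 0.000125), with a mean normalised count over all libraries of 840. The remaining lower genes of the large subunit all lay within a narrow band. MRPL52, which has no bacterial counterpart, was at -0.49 and MRPL9, the counterpart of bacterial L9, at -0.48 (DESeq2 adjusted p = 0.00301 and 0.00812). MRPL47, the counterpart of bacterial L29 beside the exit of the nascent chain, was at -0.47 (DESeq2 adjusted p = 0.0112). MRPL51 and MRPL41, both mitochondria-specific, were each at -0.46 (DESeq2 adjusted p = 0.00469 and 0.0362). MRPL48 at -0.44 and MRPL40 at -0.40 sit in the central protuberance, the crown of the large subunit that faces the small one. MRPL37, at -0.33, was the called member nearest the threshold (DESeq2 adjusted p = 0.0479).

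On the other side stood 5 large subunit genes. MRPL50, mitochondria-specific, had the highest log2 fold change of the subunit, 0.81 (SE 0.18, DESeq2 adjusted p = 0.000100), or 176% of the siScram level with a 95% interval of 137% to 225%. MRPL42, which was first described as a small subunit protein and is placed in the large subunit by structure, was at 0.71 (SE 0.16, DESeq2 adjusted p = 0.000141). MRPL19, the counterpart of bacterial L19 at the interface between the subunits, was at 0.61 (SE 0.20, DESeq2 adjusted p = 0.00966). The counterparts of bacterial L34 and L35 were higher by less, MRPL34 by 0.46 and MRPL35 by 0.45 (DESeq2 adjusted p = 0.0226 and 0.0446). Mitochondria-specific proteins were therefore found at both ends of the large subunit.

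In the small subunit 7 genes were called. MRPS6, the counterpart of bacterial S6, was its highest called member in the authors' deposited table, at 0.63 (SE 0.20, DESeq2 adjusted p = 0.00909). MRPS25, a mitochondria-specific protein, was the other called higher, at 0.40 (SE 0.15, DESeq2 adjusted p = 0.0301). MRPS17, the counterpart of bacterial S17, was the lowest at -0.55 (SE 0.21, DESeq2 adjusted p = 0.0275), at a mean normalised count of only 68.6 and with 27.0% of its exonic bases shared with other genes on the same strand. MRPS27, a protein with the pentatricopeptide repeats of RNA-binding proteins, was at -0.47 (SE 0.15, DESeq2 adjusted p = 0.0103), and MRPS11, the counterpart of bacterial S11, at -0.43 (SE 0.16, DESeq2 adjusted p = 0.0268). The highest mean normalised count of the small subunit, 1667, was that of DAP3, a GTP-binding protein of its head also studied in cell death. Per kilobase of the main transcript MRPS34 (918) and MRPS21 (813) stood above DAP3 (798). DAP3 was not called, at 0.15 (SE 0.12, DESeq2 adjusted p = 0.381).

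The 3 paralogs related to bacterial S18 sit in different places of the ribosome. MRPS18A, which is placed in the large subunit by structure, fell by 0.53 (SE 0.16, DESeq2 adjusted p = 0.00528). MRPS18B, in the small subunit, fell by 0.41 (SE 0.15, DESeq2 adjusted p = 0.0250). MRPS18C, also in the small subunit, was at -0.22 and not called (SE 0.17, DESeq2 adjusted p = 0.330). All 3 values in the authors' deposited table were negative, and the difference between the paralogs was not tested. MRPS30, which also belongs to the large subunit by structure, was at 0.19. MRPS36, now known as a subunit of the oxoglutarate dehydrogenase complex and not of the ribosome, was at -0.03. MRPL58, a large subunit protein that acts as a peptide-releasing rescue factor, was at -0.07, and none of these last 3 was called. With the subunits drawn by structure, the large subunit had 5 higher and 12 lower of 51, the small subunit 2 higher and 4 lower of 26, and the medians differed by -0.12.

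Within the subunits, drawn by structure, the 21 proteins listed as mitochondria-specific in the large subunit held 2 higher and 8 lower genes with a median log2 fold change of -0.19. The mitochondria-specific lists count MRPS18A in the large and MRPS18B in the small subunit, both called lower. As both are related to bacterial S18, the lists are not strictly a split by origin. The 30 with a bacterial counterpart held 3 higher and 4 lower with a median of 0.03. The called shares were 47.6% and 23.3%, against 34.0% of all genes of the table, and the difference was not tested. In the small subunit the order of the medians was the other way round, at 0.08 for 12 mitochondria-specific proteins (1 higher, 2 lower) and -0.19 for 14 with a bacterial counterpart (1 higher, 2 lower). The split by these lists therefore gave no common direction over the whole ribosome. Without the trend over GC content, length and expression, MRPL49 alone of the 21 mitochondria-specific large subunit proteins was called. Their median came to -0.015, the value of MRPL43. Of the 30 with a bacterial counterpart, MRPL34 and MRPL47 kept their calls. By place, the 7 proteins of the central protuberance all had negative values, between -0.44 and -0.07, of which 2 were called. With the trend over GC content, length and expression taken out over all genes, MRPL58, MRPL27, MRPL46 and MRPL38 turned positive (0.14, 0.14, 0.05 and 0.0050) and neither call was kept. Of the 5 proteins of the stalk, the flexible arm that recruits translation factors, none was called, and their median was -0.31, which became 0.075, the value of MRPL53, without that trend. MRPL10 in the stalk base and MRPL2, the counterpart of bacterial L2 near the catalytic centre, were nearest the threshold among members not called, at -0.32 and -0.40 (DESeq2 adjusted p = 0.0680 and 0.0627). Around the exit of the nascent chain, MRPL47 was the 1 called protein of 6, with a median of -0.05.

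**Figure D2:**
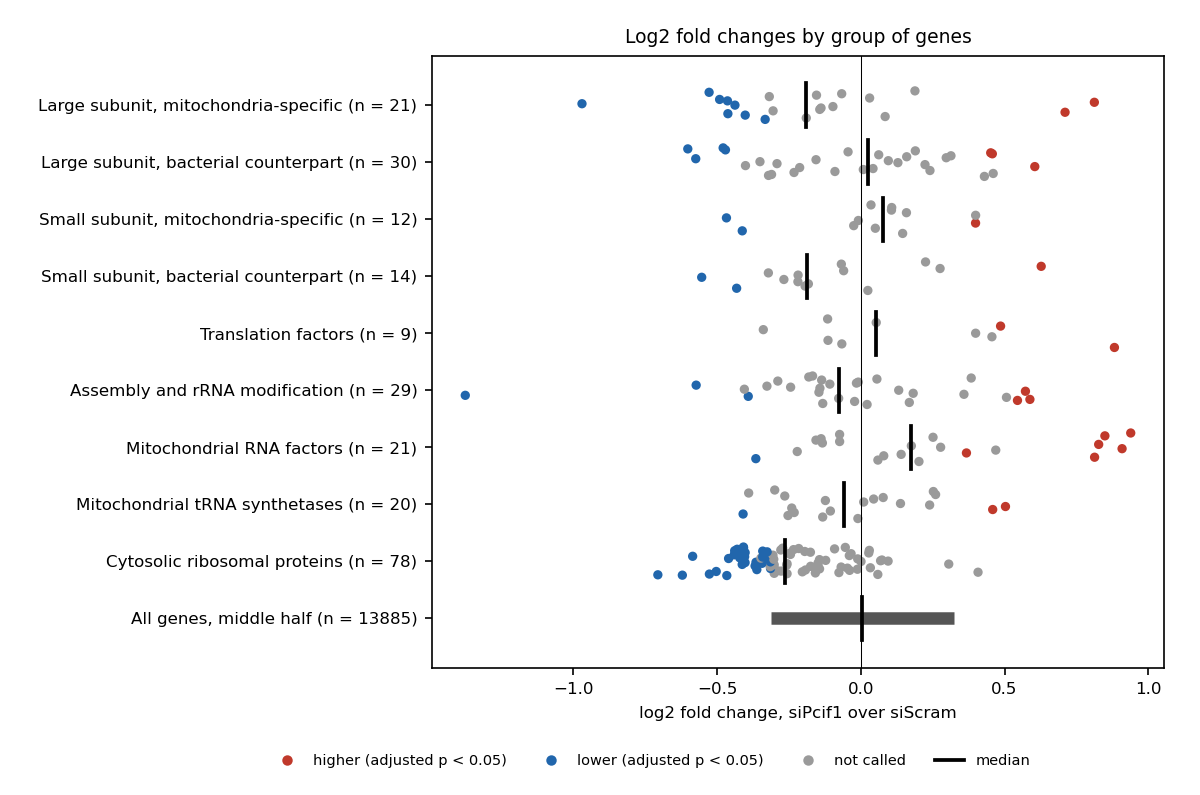
Log2 fold change (siPcif1 over siScram, x axis) of each gene of 9 groups in the authors' deposited table, with a bar at each group's median, and the interquartile range of all 13885 genes as a grey band in the lowest line. The medians run from -0.26 for the cytosolic ribosomal proteins to 0.18 for the mitochondrial RNA factors, and each of the 4 groups of subunit proteins holds genes called in both directions.

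The translation factors gave 2 calls among 9 genes, both higher. Their called share of 22.2% was below the 34.0% of all genes, of which 16.3% were called higher. With so few genes the direction of the calls was not tested. GFM1, the elongation factor G that moves tRNAs and mRNA through the ribosome, had the highest log2 fold change of all members in the authors' deposited table, 0.88 (SE 0.16, DESeq2 adjusted p = 4.86e-07), or 184% of the siScram level with a 95% interval of 149% to 228%. GFM2, its paralog that works with the recycling factor MRRF to split the subunits after termination, was at -0.07 (SE 0.16, DESeq2 adjusted p = 0.785), and MRRF was at -0.11 (SE 0.14, DESeq2 adjusted p = 0.555). MTRF1L, the release factor for the standard stop codons, was at 0.49 (SE 0.18, DESeq2 adjusted p = 0.0288). MTRF1, its paralog for the non-standard stop codons of MT-CO1 and MT-ND6, was at -0.34 and not called (SE 0.24, DESeq2 adjusted p = 0.281) at a mean normalised count of 45.8. In both pairs of paralogs the called member is thus the one with a positive value, and neither difference was tested. With the trend over GC content, length and expression taken out, GFM1 kept its call. MTRF1L then came to 0.30 and lost its call, while MTRF1 came to -0.62 and was called lower.

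The initiation factors MTIF2, which brings the initiator tRNA to the small subunit, and MTIF3, which keeps the subunits apart before initiation, had positive values that missed the threshold. MTIF2 was at 0.46 (SE 0.21, DESeq2 adjusted p = 0.0763) and MTIF3 at 0.40 (SE 0.19, DESeq2 adjusted p = 0.0938). TUFM, the elongation factor Tu that delivers charged tRNAs, had the highest mean normalised count of all 87 members, 1965, and was at -0.12 (SE 0.14, DESeq2 adjusted p = 0.551). TSFM, which recharges TUFM with GTP, was at 0.05 (SE 0.17, DESeq2 adjusted p = 0.836). The 95% interval of TUFM, 76.8% to 111% of the siScram level, did not reach the value of GFM1.

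The members covered a wide range of levels. After TUFM and DAP3, the highest mean normalised counts in the authors' deposited table were 1477 for MRPS16, the counterpart of bacterial S16, and 1188 for MRPS21, the counterpart of bacterial S21. At the low end were MRPL53 at 11.1, MRPL38 at 16.3, MRPS28 at 32.1 and MTRF1 at 45.8. Their 95% intervals were wide, such as 93.0% to 187% of the siScram level for MRPS28 and 57.1% to 110% for MTRF1. The genes at both ends of this range were not called, and their log2 fold changes lay between -0.34 for MTRF1 and 0.40 for MRPS28. Per kilobase of the main transcript the normalised counts ran from 8.61 for MRPL38 to 1291 for MRPL21, the counterpart of bacterial L21. Across the 87 members Spearman's rho between log2 fold change and mean normalised count was -0.33, against -0.10 across all protein-coding genes, as a description of genes measured in the same libraries.

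The members that rose and those that fell differed in the make-up of their transcripts. The 9 that rose had a median GC content of 41.3% and a median length of 3.68 kb, and 8 of them were under 50% GC. The 16 that fell had a median GC content of 52.7% and a median length of 1.38 kb, and 5 of them were under 50% GC. Across the 87 members Spearman's rho between log2 fold change and GC content was -0.43, against -0.44 across 11790 protein-coding genes of the table. By subunit it was -0.46 across the 49 large subunit genes and -0.24 across the 29 small subunit genes. These genes share libraries and are not independent replicates, so the coefficients are descriptions only. Among the 29 members with the lowest GC content (35.0% to 44.9%) 6 rose and 1 fell, with a median log2 fold change of 0.11. Among the 29 with the highest (52.4% to 71.9%) 1 rose and 9 fell, with a median of -0.31. Large subunit genes had a median GC content of 50.8%, small subunit genes of 47.2%. Within the lowest GC group the medians were 0.16 for 13 large subunit genes and 0.02 for 9 small subunit genes. Among the 29 members in between they were -0.10 for 16 and -0.0046 for 12, and within the highest -0.32 for 20 and -0.21 for 8. The large subunit median was thus the lower in 2 of the 3 GC groups, with no test of the difference.

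**Figure D3:**
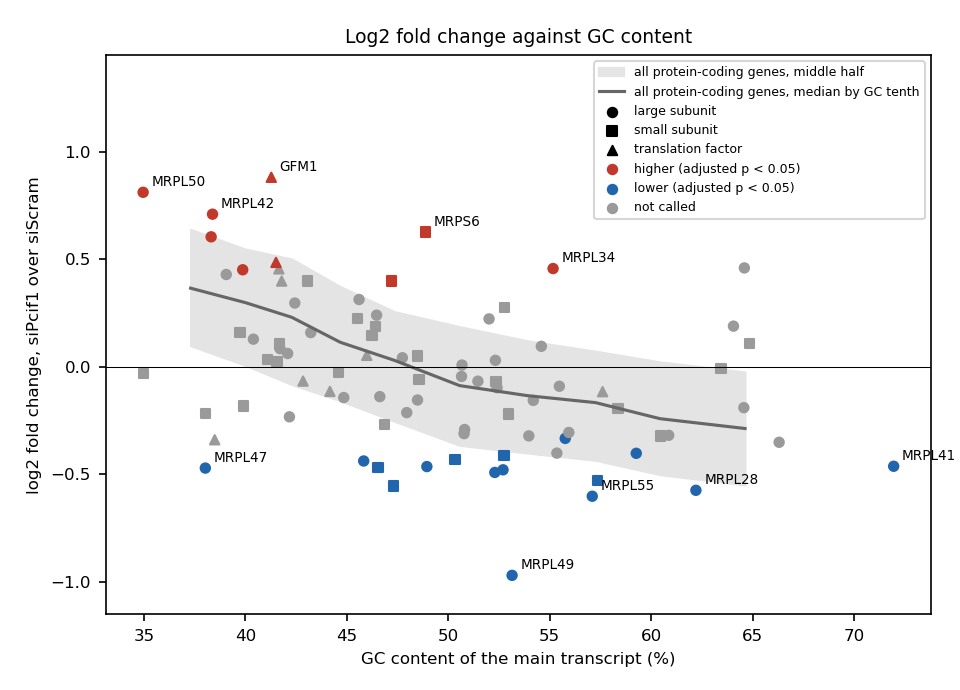
Log2 fold change (siPcif1 over siScram, y axis) against GC content of the main transcript in percent (x axis) for the 87 members, with the median and interquartile range of all protein-coding genes in 10 GC bins as a line and a band. The members slope down with the line, with MRPL28 and MRPL41 at the lower right. GFM1, MRPL50, MRPL42, MRPS6 and MRPL34 lie above the band or its nearest edge, and MRPL49, MRPL55 and MRPL47 are among those below it.

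With the dependence of log2 fold change on GC content, length and mean expression taken out over 13877 genes, 15 members (17.2%) were called, 9 higher and 6 lower, against 25.3% of those genes. Of the 25 members called as deposited 7 kept their call, GFM1 (0.72), MRPS6 (0.72), MRPL34 (0.73), MRPL49 (-0.80), MRPL47 (-0.63), MRPS17 (-0.57) and MRPS27 (-0.43). The other 18 lost it to different degrees. MRPL28 and MRPL41 came to -0.18 and -0.01 on the log2 scale. MRPS25 at 0.35, MRPL48 at -0.37 and MRPS11 at -0.35 kept most of their deposited value but were no longer called (adjusted p = 0.0773, 0.0877 and 0.102), and MRPL50 came to 0.45 (adjusted p = 0.0545). The 8 members called only then were MRPL12, MRPL4, MRPS34, MRPL20, MRPS5 and MRPL24, which were higher, and MTRF1 and MRPS18C, which were lower. Of these MRPL12, the stalk protein that also binds the mitochondrial RNA polymerase, was highest at 0.78, but 68.2% of its exonic bases are shared with another gene on the same strand. The large subunit median then lay 0.053 above that of the small subunit, so the sign of the difference between the subunits turned with this adjustment. Of the 15 calls 7 were then among the 49 large subunit genes, 6 among the 29 small subunit genes and 2 among the factors. Of the 7 members called both ways, GFM1 and MRPL49 had the smallest adjusted p in either case. The part of GC content and length in the other calls was not tested.

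**Figure D4:**
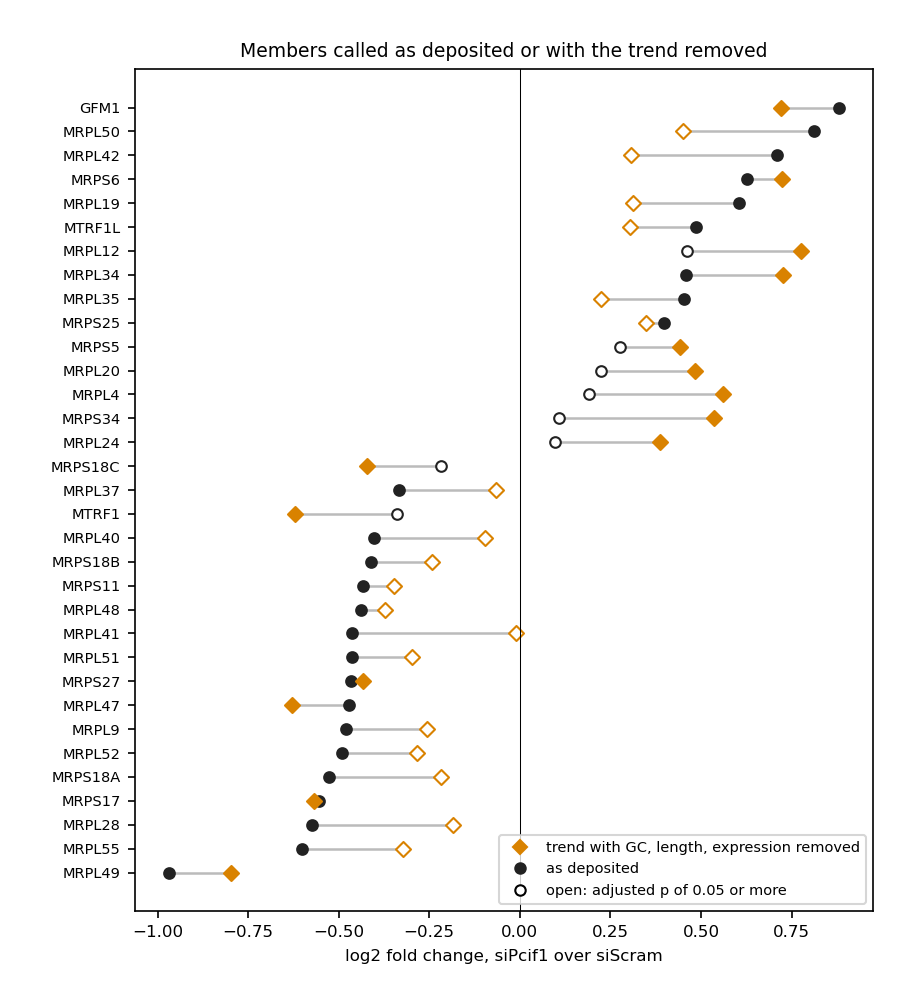
Log2 fold change (siPcif1 over siScram, x axis) of the 33 members called as deposited or after removal of the trend over GC content, length and expression. Circles are deposited values, diamonds values without the trend, and open symbols have an adjusted p of 0.05 or more. MRPL49 stays lowest, GFM1 comes to lie just below MRPL12, MRPL34 and MRPS6, and MRPL28 and MRPL41 move towards 0.

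Promoters were read from RefSeq for the 78 members with an entry and for 9411 protein-coding genes of the table, as the 250 bases before the start, both strands. The ETS word CCGGAAG was in 31 of the 78 member promoters (39.7%) and in 17.2% of all 9411. It was in 6 of 9 translation factor promoters, in 2 of the 8 members that rose and had an entry, and in 5 of the 16 that fell. The median log2 fold change was -0.07 for members with the word and -0.04 for those without. The word was thus frequent among these genes but did not separate those that rose from those that fell. GCATGCGC, a word of the factor NRF1, was in 7.69% of member promoters and 5.14% of all. ATGGCGG, a word of YY1, was in 6.41% against 3.97%, and CACGTG, the E-box bound by MYC and MAX, in 5 of 78 against 847 of 9411. A match is a description and no evidence of binding.

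Only an mRNA that starts with A can carry m6Am beside its cap. The annotated first base was A in 30 of 78 members (38.5%) by RefSeq, against 45.9% of all promoters, and in 27 of 87 main transcripts (31.0%) by GENCODE, against 28.6%. By GENCODE the median log2 fold change was -0.03 for members starting with A and -0.07 for the others. In the large subunit the medians were 0.08 with A and -0.20 with another base, in the small subunit -0.22 with A and 0.08 with another base. The subunits thus went opposite ways, and annotated starts are not starts measured in these cells.

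The word TCAAGTA in 3′ UTRs had come up in an earlier scan of these same fold changes, so that its values are no independent evidence of an effect. Among the members 6 carried it in the 3′ UTR of the main transcript, and 4 sites are shown in 22 bases of GENCODE 29 sequence on GRCh38, with TCAAGT in capitals.
MRPS27 (chr5:72219825-72219846, minus strand): ctcatttaTCAAGTaggtaaaa
MRPS11 (chr15:88479311-88479332, plus strand): aggagtggTCAAGTacacaaaa
MTRF1 (chr13:41216895-41216916, minus strand): ccaactcaTCAAGTagaaaata
TSFM (chr12:57797310-57797331, plus strand): acatttctTCAAGTataacata
Of the 6, MRPS27 and MRPS11 were called, both lower, and the median log2 fold change was -0.30, with TSFM the highest at 0.05. The 12 members with TCAAGT but not TCAAGTA in the 3′ UTR held 4 higher and 4 lower genes, median -0.11. The 69 with neither in the 3′ UTR held 5 higher and 10 lower, median -0.04. Over all protein-coding genes of the table the same 3 classes had medians of 0.10, 0.10 and -0.05. Those with TCAAGTA held 260 higher and 178 lower of 1089 genes. The other classes held 604 higher and 369 lower of 2543, and 1177 higher and 1680 lower of 8158. Differences between the members and these counts were not tested.

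Many of these genes share a start region with a neighbour that is read the other way. A partner was counted where it is protein-coding, on the other strand, and its main transcript starts within 1000 bases before that of the member. Neighbours that start past the member's own start, and so overlap it, were not counted. Such a partner was in the table for 22 members, of which 7 were called. The partner was called the same way in 0 of the 7, the other way in 1 and not at all in 6. FAU, which overlaps MRPL49 on the other strand, was not among these partners. Both genes were called lower, FAU at -0.47 (SE 0.13, DESeq2 adjusted p = 0.00248). MRPS27, at -0.47, starts 106 bases from PTCD2, a gene for another pentatricopeptide repeat protein of mitochondria, which the authors' deposited table gives at 0.66 (SE 0.20, DESeq2 adjusted p = 0.00445). MRPS11 and MRPL46, proteins of the small and the large subunit, start 34 bases apart, and MRPS11 was called while MRPL46 was at -0.10 (SE 0.20, DESeq2 adjusted p = 0.751). MRPL47, also at -0.47, starts 48 bases from NDUFB5, a subunit of respiratory complex I, which was at -0.04 (SE 0.15, DESeq2 adjusted p = 0.870). Beside members that were not called, the partners KLC4, C9orf116, APBA3 and YY1AP1 fell. Partners were named after their values were seen. In 46 of the 87 members the gene overlaps another gene on the opposite strand, and the sources used here do not give whether counting used the strand. Among called members, exons on the other strand covered more exonic bases in several genes than the 12.2% in MRPL49. These include MRPS18A (47.0%), MTRF1L (34.8%), MRPL9 (33.2%) and MRPL51 (31.3%).

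**Figure D5:**
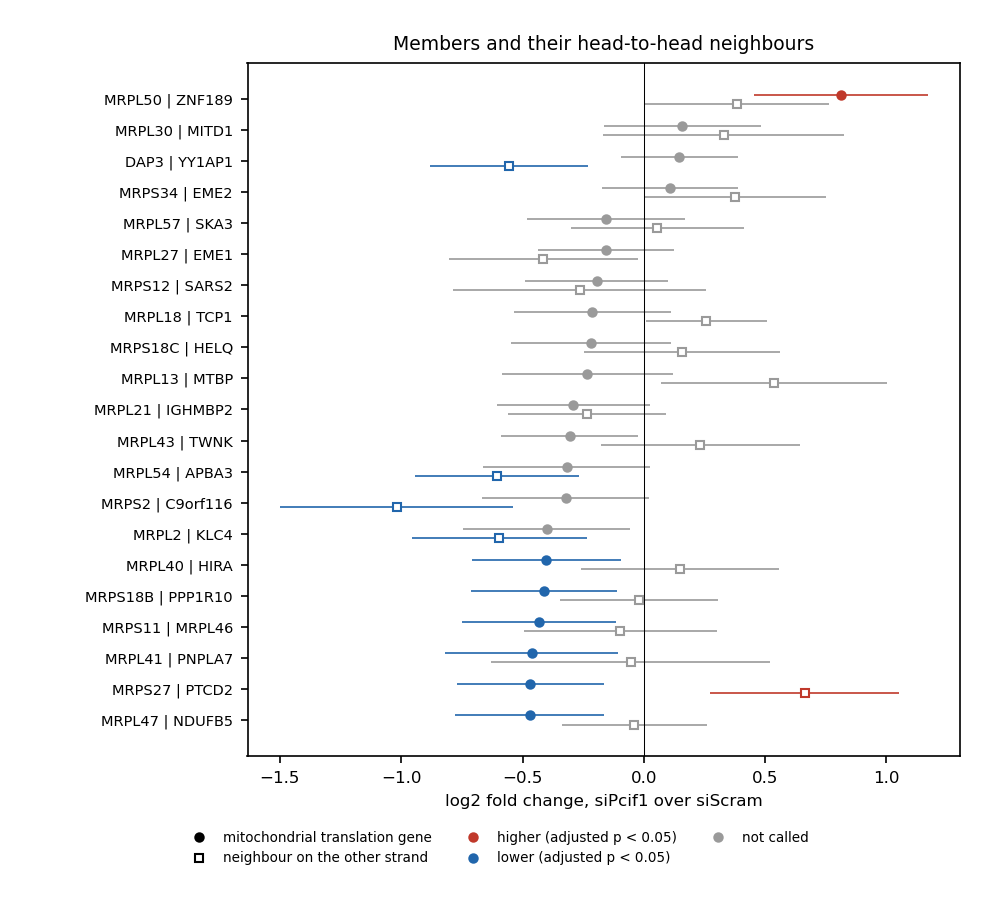
Log2 fold change (siPcif1 over siScram, x axis) with 95% intervals for 21 pairs of a mitochondrial translation gene (filled circle) and its protein-coding neighbour (open square). The neighbour starts on the other strand within 1000 bases before the gene, and pairs with overlapping starts are left out. No pair shown is called in the same direction, and MRPS27 with PTCD2 is the pair called in opposite directions. Few of the members shown are called, and these counts were not tested.

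Other genes that serve the mitochondrial ribosome were set beside the members. Of the 4 mitoribosomal proteins with other symbols, AURKAIP1 fell by 0.59 (SE 0.14, DESeq2 adjusted p = 0.000123) and PTCD3 was higher by 0.64 (SE 0.15, DESeq2 adjusted p = 0.000241). GADD45GIP1 at -0.06 and CHCHD1 at -0.03 were not called. Of 29 assembly and ribosomal RNA modification factors 3 rose and 3 fell, with a median log2 fold change of -0.08. That is a called share of 20.7%, against 34.0% of all genes of the table. MPV17L2, a membrane protein needed for ribosome assembly, was the lowest gene of all these lists other than MYC, at -1.38 (SE 0.16, DESeq2 adjusted p = 4.37e-16), and the GTPase NOA1 was at -0.57. FASTKD2 at 0.54 and the GTPase GTPBP10 at 0.59 were among the 3 that rose.

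Factors that make, process and stabilise mitochondrial RNA had a median of 0.18, with 6 of 21 higher and 1 lower. Their called share was 33.3%, close to the 34.0% of all genes of the table. LRPPRC, which protects mitochondrial mRNAs, was at 0.91 (SE 0.14, DESeq2 adjusted p = 3.93e-09) at a mean normalised count of 1513. TRMT10C, a subunit of mitochondrial RNase P, was at 0.94, the packaging and transcription factor TFAM at 0.85, and the RNA-degrading enzyme PNPT1 at 0.83 (DESeq2 adjusted p = 0.000134, 0.000210 and 0.000242). These transcripts had a median GC content of 42.4%, on the side of the GC slope where genes at large had positive values. Of the 20 mitochondrial tRNA synthetases and amidotransferase subunits IARS2 (0.50) and GATC (0.46) rose and EARS2 (-0.41) fell. Among 10 rescue, membrane insertion and activator genes GUF1 (0.58) rose, while OXA1L (-0.55), C12orf65 (-0.39) and LETM1 (-0.41) fell. The called share was 15% for the synthetase list and 40% for the rescue list, against 34.0% of all genes. OXA1L is the insertase that receives nascent chains from the mitochondrial ribosome.

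The 13 protein-coding genes of the mitochondrial genome, which this ribosome translates, were not called in either direction. Their log2 fold changes in the authors' deposited table ran from -0.10 to 0.26 with a median of 0.11 and a median SE of 0.27, at mean normalised counts of 136 to 73498. The 78 cytosolic ribosomal protein genes held 29 lower and 0 higher genes, with a median of -0.26. Their called share was thus 37.2%, all lower, against 17.7% called lower among all genes of the table. Of 13 regulators of transcription of nuclear genes for mitochondria, 3 rose and 4 fell, a called share of 53.8% against 34.0% of all genes. MYC was at -2.22 (SE 0.19, DESeq2 adjusted p = 2.49e-29) and MYCN, amplified in this line, at 1.09 (SE 0.16, DESeq2 adjusted p = 3.94e-10). The stress regulators ATF4 and ATF5 were at -1.28 and -1.07, and GABPA, an ETS factor, was at 0.89 (SE 0.19, DESeq2 adjusted p = 4.61e-05). NRF1 was at -0.36 and was not called (DESeq2 adjusted p = 0.0760). Of these regulators MYC, ATF4, MYCN and ATF5 changed by more than any member did, and in both directions.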

How the data were processed

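RNA was measured in 3 siPcif1 and 3 siScram samples of BE(2)-C cells under ATRA, as poly(A)-selected strand-specific libraries per the labels' protocols. Per the submitters' processing notes, the authors used hg38, DESeq2, HTSeq, STAR 2.7.10a, deepTools, cutadapt 3.7 and bcl2fastq 2.20, with no settings given. One table was used. The authors' deposited mean of normalised counts is a signal over all samples. The authors deposited the log2 fold change with its SE on the same log2 scale. The Wald statistic is a score deposited by the authors. Each deposited p-value was used unchanged, and a Benjamini-Hochberg adjustment over all 13885 genes gave back the deposited adjusted p-value. Depth per library is unknown, so precision was read from the SE. No SE was above 0.295, and fold change over SE differed from the Wald statistic by at most 2.16 in the table and 0.0122 among the members. Fold changes may thus have been shrunken towards 0 and understate changes, which the header does not state.

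GENCODE 29 (GRCh38) gave symbols, coordinates, transcripts and 3′ UTRs for 13877 genes, joined by unversioned identifier. The main transcript was ranked by APPRIS, basic tag, support level and length. Promoters came from RefSeq on GRCh38.p14. The pseudogenes MRPL45P2 and MRPS31P5 were left out. The members and all lists were chosen with earlier results of these data known. Groups were described by counts and medians, with no test over genes. Named genes were PCIF1, every translation factor, the 8 highest and 8 lowest called members of each subunit, paralogs, members whose symbol and place differ, those nearest 0.05, and up to 4 genes of each other list by adjusted p. Intervals of 95% were computed from the deposited SE. Alternatives were other thresholds, a minimum mean of 100, a test against an absolute log2 fold change of 0.3, centring, removal of a quadratic trend on GC content, length and mean expression, scaling of the Wald statistic, subunits by structure, and subsets of members. The steps were tested on simulated data. Software was matplotlib 3.10.9, pandas 2.3.3, scipy 1.17.1 and numpy 2.4.6 under Python 3.11.15.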

Additional observations from a re-analysis of the deposited data

How the results depend on the processing

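Of 25 members called (16 large subunit, 7 small subunit, 2 factors), an adjusted p under 0.01 left 12 (9, 2 and 1). A threshold of 0.1 gave 33 members, with 4 factors. The other genes set beside the members numbered 97, with the regulators of transcription included. Of these 97 other genes 29 were called, 7 of them regulators, and 19 of the 29 stayed called at 0.01. A test against an absolute log2 fold change of 0.3 left 2 members, MRPL49 and GFM1 (large subunit 1, small subunit 0, factors 1), and 8 other genes, and PCIF1, at -0.82, was no longer called. Removal of the trend over GC content, length and expression gave 15 members, 7 of them called as deposited, with 7 in the large subunit and a large minus small subunit median of 0.053 in place of -0.11. The robust SD of the Wald statistic over the table was 2.44. Dividing by it left 0 members, 0 large subunit genes, 0 small subunit genes, 0 factors, 3 other genes and 135 genes of the table, and PCIF1, at -0.82, was not called. Without scaling, 36 members had an unadjusted p under 0.05. Among the 62 members without TCAAGT in the transcript 14 were called (10, 3 and 1), and among the 41 with no gene on the opposite strand 8 (7, 1 and 0), both smaller sets by construction. The share of members called lay below that of the table at 0.01 (13.8% against 22.9%), at 0.1 (37.9% against 41.2%), in the test against 0.3 (2.30% against 9.07%), without the trend (17.2% against 25.3%) and at a minimum mean of 100 (30.8% against 41.7%). A minimum mean of 100, centring, subunits by structure and the addition of 4 proteins with other symbols gave 24, 25, 25 and 27 calls. No value called changed its sign under any alternative run. The alternative with unshrunken fold changes was not run, because the prior could not be determined. No paired analysis was possible because no values per library were analysed here, and for the same reason no sample could be left out in turn.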
